A study of Mus musculus with 24 samples.

Results

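The genes described here are 10 genes of glycolysis and of the response to low oxygen, led by Hk2, which encodes hexokinase 2. They were chosen by name, with earlier results of these data known: Hk1, Hk2, Slc2a1, Ldha, Pgk1, Pdk1, Pfkfb3, Vegfa, Hif1a and Eno1. All 10 were found among the 24614 genes counted, and all 10 passed the filter on low counts that left 11698 genes for testing. The cells were ID8, derived from mouse ovarian surface epithelium and used as a model of ovarian cancer, and per the labels every group lacks Trp53 and Brca2. Clones 1CF10 and 2CD7 carry a CRISPR knockout of Ifnar1, a chain of the type I interferon receptor, and each is a single clone. EV cells received the empty CRISPR vector, and WT cells were untransfected. Each of the 4 lines was sampled after 3 h with interferon beta (IFN beta, recombinant, mouse; 10000 IU/ml) and untreated, 3 libraries in each of the 8 groups. Since the labels call these 3 libraries technical replicates of a single treatment date, the p-values below measure technical spread and not variation between cultures made on different days.

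Hexokinases trap glucose in the cell by phosphorylating it, and the enzymes that follow turn it into pyruvate, which lactate dehydrogenase converts to lactate. The transcription factor subunit HIF-1 alpha, encoded by Hif1a, is made all the time and destroyed when oxygen is present. When oxygen is low it persists, pairs with ARNT at DNA sites with the core ACGTG or GCGTG, and raises the mRNA of many glycolytic genes. Many tumour cells depend on hexokinase 2, which most adult tissues make little of, whereas hexokinase 1 is the common form. HIF-1 alpha is controlled mainly as a protein, which mRNA counts do not show.

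The promoter windows of the 3 genes on which the results turn are shown because they hold the core of the HIF site. Each runs from 250 bases before to 50 bases after a transcription start in RefSeq on GRCm38.p6, 5′ to 3′ on the strand of the gene, and capitals mark ACGTG or GCGTG read on either strand. The windows are chr6:82774405-82774704 on the minus strand for Hk2, chr12:73907617-73907916 on the plus strand for Hif1a, and chr7:46845554-46845853 on the plus strand for the first of the starts of Ldha.
Hk2: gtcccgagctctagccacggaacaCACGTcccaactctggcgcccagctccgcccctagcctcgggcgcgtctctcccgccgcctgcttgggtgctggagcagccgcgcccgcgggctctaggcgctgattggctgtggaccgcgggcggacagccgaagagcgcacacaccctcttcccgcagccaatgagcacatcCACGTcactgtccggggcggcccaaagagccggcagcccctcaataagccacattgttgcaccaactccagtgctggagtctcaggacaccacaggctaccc
Hif1a: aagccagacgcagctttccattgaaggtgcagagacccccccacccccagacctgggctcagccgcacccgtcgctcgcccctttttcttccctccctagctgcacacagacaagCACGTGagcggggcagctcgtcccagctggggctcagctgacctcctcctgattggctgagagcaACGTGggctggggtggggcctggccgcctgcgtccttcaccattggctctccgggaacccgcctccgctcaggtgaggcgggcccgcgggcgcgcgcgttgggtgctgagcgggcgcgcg
Ldha: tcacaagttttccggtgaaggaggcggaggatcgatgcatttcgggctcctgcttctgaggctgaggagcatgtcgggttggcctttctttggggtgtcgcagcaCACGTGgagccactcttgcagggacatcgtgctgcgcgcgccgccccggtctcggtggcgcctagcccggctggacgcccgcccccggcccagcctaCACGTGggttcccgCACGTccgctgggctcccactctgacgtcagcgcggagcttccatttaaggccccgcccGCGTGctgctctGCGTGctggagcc
The Hk2 window holds 2 ACGTG cores, both on the opposite strand, whose first bases lie at -226 and -52 from the start. The Hif1a window holds 3 ACGTG cores and the Ldha window 5, together with 2 GCGTG cores, where the palindrome CACGTG counts once on each strand and its copies overlap. All 10 genes matched the RefSeq table, with 17 windows, and ACGTG was found in 9 of these and GCGTG in 10. At least 1 of these cores was found in 14 windows, against 43.8% of 32851 mouse promoter windows of the same length. Of the 17 windows, 2 of Eno1 overlap and hold the same cores. The windows of all promoters were not matched to these in base content, and the comparison was given no test. The interferon-stimulated response element core (GAAA, any 2 bases, GAAA) was found in 1 of the 17 windows, the first of Vegfa, against 3.44% of all windows, and the STAT site TTCNNNGAA in none, against 8.3%. A match is a run of letters and not a bound site. In the GENCODE M21 annotation on GRCm38, Hk2 spans chromosome 6 from 82725025 to 82774454 on the minus strand and ends in exon 18 (82725025 to 82727454). Hif1a spans chromosome 12 from 73901375 to 73947530 and ends in exon 15 (73945552 to 73947530), and Ldha spans chromosome 7 from 46841475 to 46855627 and ends in exon 8 (46854977 to 46855626), both on the plus strand. The others lie on chromosome 10 (Hk1), 4 (Slc2a1 and Eno1), X (Pgk1), 2 (Pdk1 and Pfkfb3) and 17 (Vegfa).

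Libraries held 1972192 to 3097331 UMIs (unique molecular identifiers, each marking 1 captured mRNA), and 15685 to 16951 genes were detected in each. Ifnar1 tags were counted in all groups, at 6.07 to 12.5 CPM (UMIs scaled to a library total of 1000000) in 1CF10, 4.33 to 9.47 CPM in 2CD7, 8.98 to 13.02 CPM in EV and 8.94 to 16.7 CPM in WT. Tags primed at the poly(A) tail can come from an edited transcript and do not check the knockout. Isg15, an interferon-induced gene, does check the treatment: it averaged 226 ± 16.6 CPM in treated and 18.1 ± 12.2 CPM in untreated EV cells, and 300 ± 37.2 CPM in treated and 16.4 ± 14.4 CPM in untreated WT cells (SD, n = 3 each). In the clones Isg15 averaged 2.02 ± 0.42 CPM in treated and 1.31 ± 0.95 CPM in untreated 1CF10, and 3.14 ± 0.52 CPM in treated and 2.29 ± 0.29 CPM in untreated 2CD7 (SD, n = 3 each). Of 9 markers of surface epithelium and mesothelium, Krt8, Krt18, Krt19, Wt1, Msln and Upk3b were counted in every library, Upk3b with as few as 2 UMIs. Krt7, Muc16 and Lhx9 held at most 2, 7 and 1 UMIs in a library and did not pass the filter. Of 10 leukocyte markers only Cd14 was abundant enough to be tested, and none of 6 endothelial markers was. The replicate spread was widest in treated 1CF10, where library 3 gave both of the highest chi-square values per gene, 4.89 and 3.82, against a median of 1.90 over 24 pairs of replicates.

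Hk2 responded to IFN beta in both lines that have the receptor. It had 147, 184 and 166 CPM in treated EV cells, against 81.9, 90.5 and 97.6 CPM in untreated EV cells. In WT it had 143, 124 and 131 CPM after IFN beta, against 66.6, 67.4 and 61.9 CPM in untreated cells. The treated and untreated libraries did not overlap in either line. The log2 fold change was 0.92 ± 0.09 (SE) in EV, a 1.90-fold rise (95% interval 1.67 to 2.16), and 1.07 ± 0.10 in WT, a 2.10-fold rise (1.83 to 2.41), with edgeR quasi-likelihood adjusted p = 4.50e-12 and 1.80e-13. No alternative setting and no left-out library ended either call. In bulk RNA, a higher level in every cell and a larger share of cells that express a gene cannot be told apart.

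**Figure D1:**
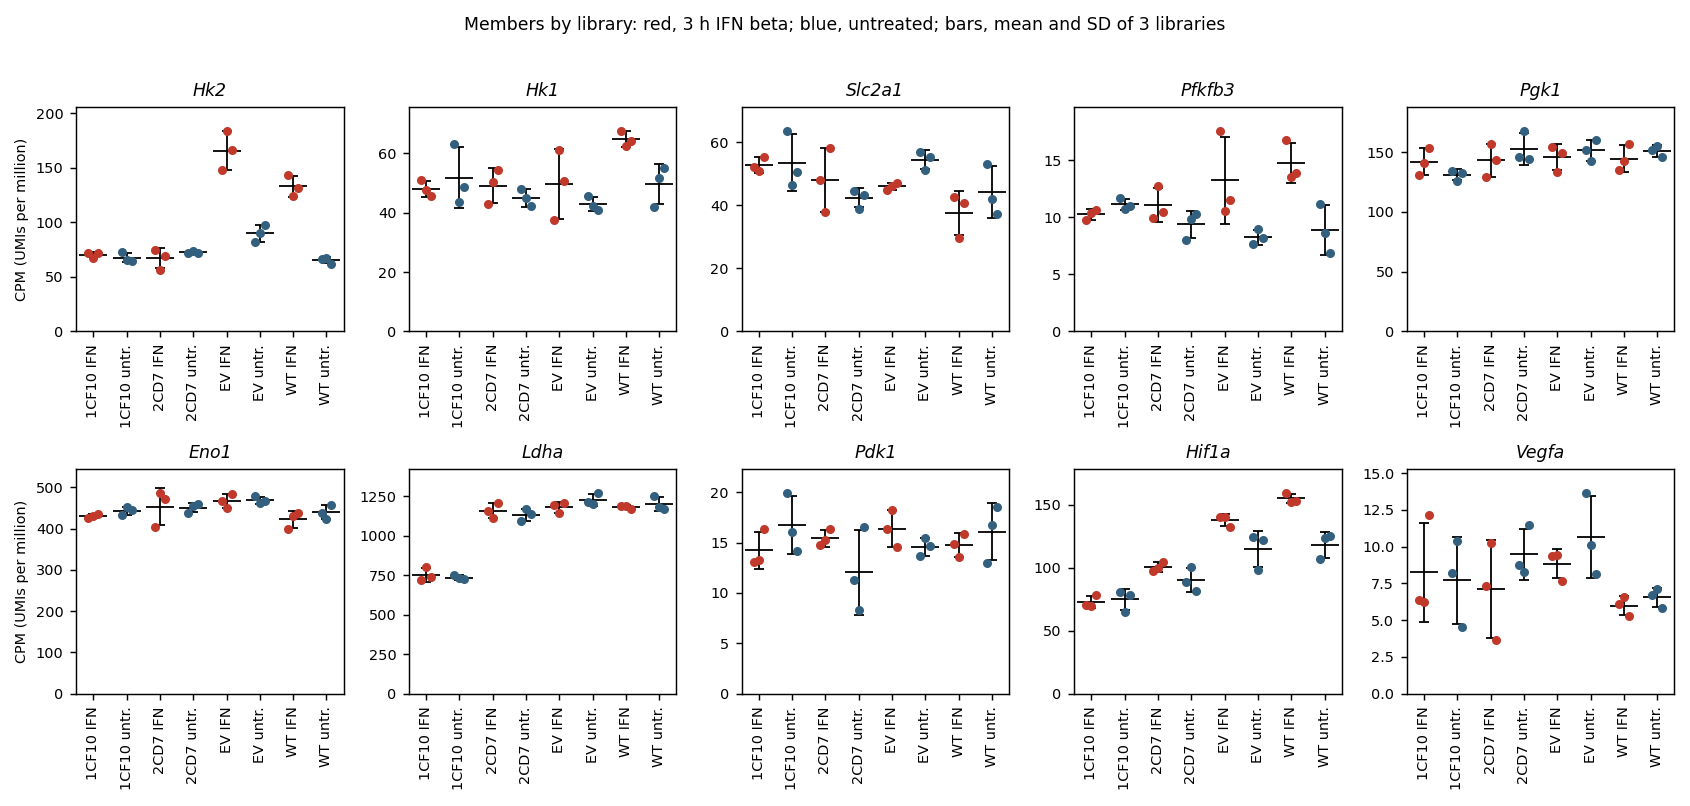
Level of each of the 10 genes (CPM, linear axis from 0) in every library of the 8 groups, with points for libraries and bars for group means and SD (n = 3). In the Hk2 panel the 6 treated EV and WT libraries, 124 to 184 CPM, stand above the 18 others, 56.7 to 97.6 CPM.

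Hk2 passed the test of IFN beta in neither clone. Hk2 had 72.0, 67.4 and 71.9 CPM in treated 1CF10, against 72.3, 65.4 and 64.6 CPM in untreated 1CF10. In 2CD7 it had 74.4, 56.7 and 69.4 CPM after IFN beta, against 72.0, 73.6 and 71.4 CPM in untreated cells. Treated and untreated libraries overlapped in both clones. The log2 fold change was 0.05 ± 0.10 in 1CF10 (95% interval -0.16 to 0.26) and -0.13 ± 0.11 in 2CD7 (-0.34 to 0.09), with edgeR adjusted p = 0.998 and 0.997. Each interval ends below the smallest change that the intervals of EV (0.74 to 1.11) and WT (0.87 to 1.27) allow. The difference itself, the mean response of the clones minus that of EV and WT, was -1.03 ± 0.10 with edgeR adjusted p = 2.48e-12. The responses of EV and WT differed by -0.15 ± 0.14 (95% interval -0.42 to 0.13), which did not pass the test. From high to low, the group means of Hk2 were 166 ± 18.1 CPM in treated EV, 133 ± 9.32 CPM in treated WT and 89.99 ± 7.87 CPM in untreated EV, and these neighbours did not overlap. Below them lay untreated 2CD7 (72.3 ± 1.11 CPM), treated 1CF10 (70.4 ± 2.62 CPM), untreated 1CF10 (67.4 ± 4.25 CPM), treated 2CD7 (66.8 ± 9.13 CPM) and untreated WT (65.3 ± 2.995 CPM), and in this order the libraries of each group overlapped those of the next (SD, n = 3 each).

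Hk1, the common hexokinase, moved less. It had 67.6, 62.6 and 64.3 CPM in treated WT cells, against 42.0, 51.7 and 55.0 CPM in untreated WT cells, without overlap. Its log2 fold change in WT was 0.42 ± 0.13 with edgeR adjusted p = 0.0316. That call was lost with DESeq2 (adjusted p = 0.112) and on leaving out treated library 1 (adjusted p = 0.0935), treated library 3 (0.0600) or untreated library 1 (0.195) of WT, and the adjusted p over all alternatives ran from 0.0122 to 0.195. In EV the groups overlapped, with 37.6, 61.1 and 50.8 CPM after IFN beta and 45.8, 42.2 and 41.1 CPM in untreated cells. The change in EV was 0.26 ± 0.14 with edgeR adjusted p = 0.395. In the clones the changes were -0.11 ± 0.13 in 1CF10 and 0.12 ± 0.14 in 2CD7. The response of the clones minus that of EV and WT was -0.34 ± 0.13 with edgeR adjusted p = 0.172, and passed on leaving out treated EV library 1 (adjusted p = 0.0437), in a range of 0.0437 to 0.427. Hk1os, annotated antisense to Hk1, held 180 UMIs, 5.83% of the Hk1 count, and the sources used here do not say whether counting used strand. Counted tags mark molecules and not length, and Hk2 made up 77.1% ± 2.4 of Hk1 and Hk2 tags in treated and 67.6% ± 3.2 in untreated EV cells. In WT the share was 67.2% ± 0.67 in treated and 57.0% ± 4.2 in untreated cells (SD, n = 3 each). The shares in 1CF10 were 59.4% ± 1.5 in treated and 56.8% ± 3.3 in untreated cells, and in 2CD7 57.5% ± 5.4 in treated and 61.7% ± 1.5 in untreated cells (SD, n = 3 each).

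Slc2a1 encodes GLUT1, the transporter that brings glucose into the cell. It had 44.9, 46.2 and 47.0 CPM in treated EV cells, against 57.0, 51.1 and 55.3 CPM in untreated EV cells, and these groups did not overlap. In WT the levels were 42.6, 29.6 and 40.7 CPM after IFN beta and 53.2, 42.1 and 37.1 CPM in untreated cells, which overlapped. The log2 fold changes of -0.20 ± 0.14 in EV and -0.18 ± 0.15 in WT did not pass the edgeR test (adjusted p = 0.562 and 0.592). The 95% intervals of these changes were -0.47 to 0.07 in EV and -0.47 to 0.11 in WT.

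Pfkfb3 makes the regulatory sugar fructose 2,6-bisphosphate, which activates phosphofructokinase. It had 16.7, 13.6 and 13.8 CPM in treated WT cells, against 11.2, 8.62 and 6.88 CPM in untreated WT cells, and 17.6, 10.6 and 11.5 CPM in treated EV cells, against 7.63, 8.92 and 8.13 CPM in untreated EV cells. Every treated library lay above every untreated one within each of these lines. The log2 fold change was 0.79 ± 0.23 in WT, with edgeR adjusted p = 0.0199, and 0.71 ± 0.24 in EV, where it missed the threshold at edgeR adjusted p = 0.0698. The WT call was lost with DESeq2 (adjusted p = 0.142) and without treated library 1 (0.105), untreated library 2 (0.0520) or untreated library 3 (0.203) of WT, with a range of 0.00784 to 0.203 over all alternatives. In EV the change passed without treated library 2 (0.87, adjusted p = 0.0347), and the range there was 0.0347 to 0.518. In 1CF10 it changed by -0.13 ± 0.23 and in 2CD7 by 0.25 ± 0.24. The treated 1CF10 libraries, at 9.71 to 10.6 CPM, lay below the untreated ones, at 10.7 to 11.7 CPM, while those of 2CD7 overlapped. The response of the clones minus that of EV and WT was -0.69 ± 0.23 with edgeR adjusted p = 0.0725, and passed without treated EV library 2 (0.0378) or untreated WT library 1 (0.0320), in a range of 0.0320 to 0.312. Pfkfb3 held 667 UMIs over the 24 libraries, so its values are less precise than those of Hk2 with 5606.

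The enzymes further down the pathway passed the test of IFN beta in neither line. Ldha, the subunit of lactate dehydrogenase that favours lactate, had 1193, 1143 and 1210 CPM in treated EV cells, against 1215, 1200 and 1271 CPM in untreated EV cells. In WT it had 1190, 1187 and 1169 CPM after IFN beta, against 1253, 1183 and 1171 CPM in untreated cells. With 65332 UMIs Ldha was the most precisely measured of the 10, and its log2 fold changes of -0.01 ± 0.05 in EV (95% interval -0.12 to 0.09) and 0.02 ± 0.05 in WT (-0.09 to 0.13) leave room for small changes only. Pgk1 (phosphoglycerate kinase) and Eno1 (enolase) changed by between -0.02 and 0.03 in EV and WT, with edgeR adjusted p of at least 0.887. Pdk1, the kinase that switches off pyruvate dehydrogenase, was low, at 8.26 to 19.9 CPM over the 24 libraries. Its changes were 0.21 ± 0.20 in EV and -0.10 ± 0.20 in WT and did not pass the test. In the clones the changes of Slc2a1, Ldha, Pgk1, Eno1, Pdk1 and Vegfa ran from -0.37 ± 0.30 (Vegfa in 2CD7) to 0.35 ± 0.21 (Pdk1 in 2CD7), and none passed the test.

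Pgk1 and Eno1 have near-identical copies, and the sources used here do not say how tags that match several genes were counted. Stretches of 101 bases, the length of the second read, that also occur in another transcript cover 67.0% of Pgk1 and 58.8% of Eno1. Within the last 500 bases, nearer to where the tags were primed, they cover none of Pgk1 and 48% of Eno1. The copy Eno1b held 48896 UMIs, 178% of the Eno1 count, so the single values of Eno1 are uncertain.

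Hif1a mRNA rose in both lines that have the receptor, by less than Hk2. It had 159, 152 and 153 CPM in treated WT cells, against 106, 123 and 125 CPM in untreated WT cells, and 140, 140 and 132 CPM in treated EV cells, against 124, 98.2 and 122 CPM in untreated EV cells. In both lines the treated libraries lay above the untreated ones, and the 6 treated EV and WT libraries, at 132 to 159 CPM, exceeded the 18 others, at 65.0 to 125 CPM. The log2 fold change was 0.43 ± 0.09 in WT and 0.30 ± 0.09 in EV, with edgeR adjusted p = 0.000312 and 0.0284. The WT call held in every alternative. The EV call was lost with DESeq2 (adjusted p = 0.104) and without treated library 1 (0.109), treated library 2 (0.104) or untreated library 2 (0.299) of EV, with a range of 0.0157 to 0.299 over all alternatives.

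In the clones Hif1a had 70.0, 69.5 and 77.9 CPM in treated 1CF10, against 81.0, 65.0 and 78.5 CPM in untreated 1CF10, and 96.9, 99.9 and 105 CPM in treated 2CD7, against 88.3, 100 and 81.7 CPM in untreated 2CD7. The treated and untreated libraries overlapped in both. The response of the clones minus that of EV and WT was -0.32 ± 0.09 with edgeR adjusted p = 0.0266. DESeq2 gave adjusted p = 0.0681 for it, and it was lost without untreated 1CF10 library 3 (0.0535), untreated 2CD7 library 2 (0.0600) or untreated EV library 2 (0.0530), in a range of 0.00841 to 0.0681. Vegfa, the angiogenic growth factor and a textbook HIF target, had 3.63 to 13.6 CPM over the 24 libraries and 496 UMIs in all. Its changes of -0.22 ± 0.28 in EV and -0.06 ± 0.34 in WT did not pass the test, and at this depth a moderate change could not have been detected.

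**Figure D2:**
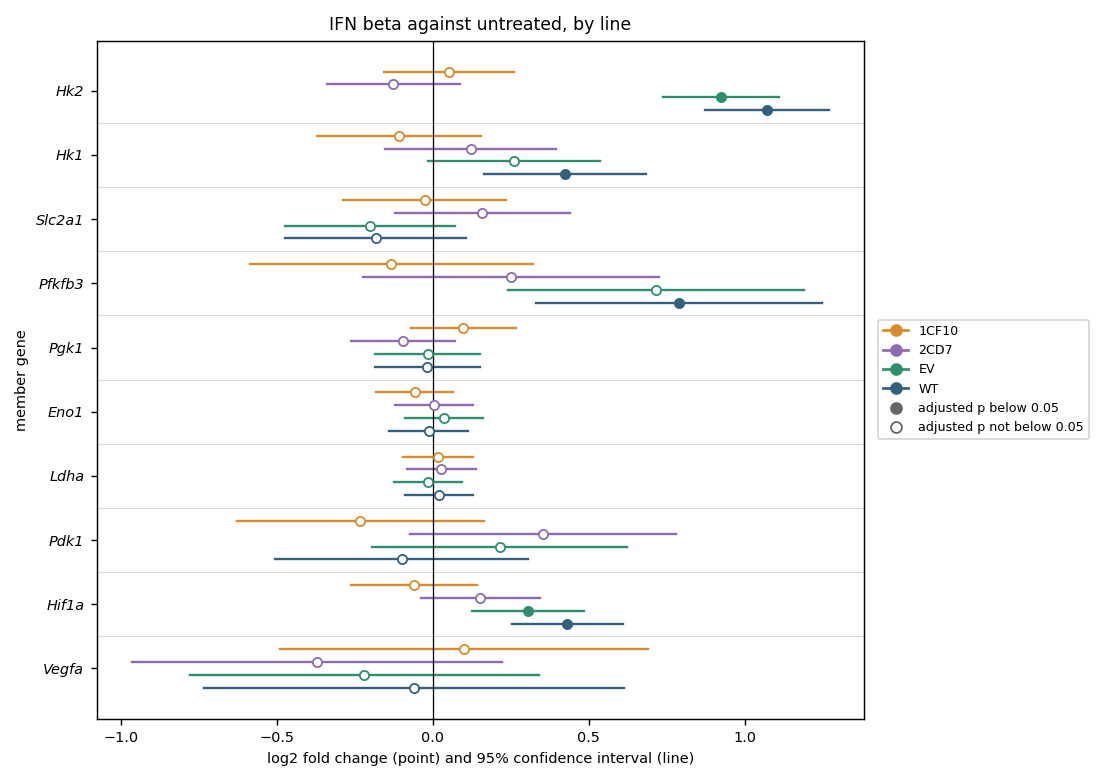
Log2 fold change of each gene after IFN beta over untreated cells in the 4 lines, with 95% intervals from the edgeR fit and filled points for adjusted p below 0.05. Hk2 stands at 0.92 in EV and 1.07 in WT and near 0 in both clones, and Ldha, Pgk1 and Eno1 lie near 0 in all 4 lines.

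The 10 genes were chosen with earlier results of these data known, so their shares describe them and are no test against all genes. Counted together, 2 of the 10 genes were called in EV, Hk2 and Hif1a, where 5.09% of all tested genes were called. In WT 4 of 10 were called, Hk2, Hif1a, Pfkfb3 and Hk1, where 6.85% of all tested genes were called. All of these were higher with IFN beta, as were 3.99% of all tested genes in EV and 5.01% in WT. The median log2 fold change of the 10 genes was 0.12 in EV and 0.003 in WT, against -0.006 and -0.02 over all tested genes. The WT count fell to 2 with DESeq2 and without treated WT library 1, and the EV count to 1 with DESeq2, without treated EV library 1 and without untreated EV library 2. In each clone edgeR called 0 of the 10 and 0% of all tested genes. Unadjusted p-values below 0.05 were found for 485 genes in 1CF10 and 510 in 2CD7, with none of the 10 among them, and DESeq2 and limma-voom also called no gene. For the clones minus the controls, 2 of 10 were called, Hk2 and Hif1a, both lower, where 5.24% of all tested genes were called and 3.68% were lower, and DESeq2 called Hk2 alone. By the libraries alone, treated and untreated levels did not overlap for 4 of the 10 genes in EV and 4 in WT, against 21.2% and 24.1% of all tested genes. In 1CF10 that was so for 1 of 10 (Pfkfb3, lower after IFN beta) and in 2CD7 for 0, against 8.16% and 9.69%. Between EV and WT edgeR called 0 of 10 responses and 0.0427% of all genes (5 genes, or 805 at an unadjusted p below 0.05, with none of the 10), and DESeq2 called none. Without the filter on low counts 76 genes were called there, and 30 with the compared groups alone. Between 2CD7 and 1CF10 edgeR called none of 11698 genes, 0%, as did DESeq2, and 1 gene was called without the filter. There 474 genes reached an unadjusted p below 0.05, Pdk1 among them with a difference of 0.58 ± 0.29 (SE).

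Other genes of these pathways were taken from lists of 44 genes of glycolysis and pyruvate use, 14 HIF regulators and 34 HIF targets, of which 28, 12 and 27 were tested. The lists too were chosen with earlier results of these data known. In EV 3 of these 67 genes rose and 1 fell, and in WT 4 rose and 5 fell. These were 5.97% of the 67 in EV and 13.4% in WT, against 5.09% and 6.85% of all tested genes. In each clone none of the 67 was called. Their median log2 fold change was 0.005 in EV and 0.01 in WT, against -0.006 and -0.02 over all tested genes. Mxi1, a HIF target whose product opposes MYC, rose in both lines: it averaged 18.3 ± 2.4 CPM in treated and 9.16 ± 2.5 CPM in untreated EV, and 28.5 ± 0.99 CPM in treated and 13.1 ± 2.4 CPM in untreated WT (SD, n = 3 each). Its log2 fold change was 1.04 ± 0.23 in EV and 1.14 ± 0.20 in WT, with edgeR adjusted p = 0.00112 and 1.35e-05, and both calls held in every alternative.

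Car12, a membrane carbonic anhydrase that handles acid, averaged 92.2 ± 2.1 CPM in treated and 44.9 ± 9.2 CPM in untreated WT and 26.04 ± 4.2 CPM in treated and 17.4 ± 2.8 CPM in untreated EV (SD, n = 3 each). It rose by 1.07 ± 0.12 in WT and 0.63 ± 0.18 in EV, with edgeR adjusted p = 3.47e-10 and 0.0183. The EV call was lost with DESeq2 (adjusted p = 0.0682) and without treated library 2 (0.233) or untreated library 3 (0.154) of EV, with a range of 0.0107 to 0.233. Edn1, which encodes endothelin-1, fell by 0.54 on the log2 scale (± 0.14 SE) in EV and by 0.96 (± 0.24) in WT, with edgeR adjusted p = 0.0109 and 0.00341. Its EV call was lost with DESeq2 (adjusted p = 0.0794) and without treated library 1 (0.117), treated library 3 (0.0875) or untreated library 3 (0.0767) of EV, within 0.00262 to 0.117. Its WT call was lost without treated library 1 (0.0525) or untreated library 1 (0.0750) of WT, within 0.00258 to 0.0750.

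The other calls were made in 1 of the 2 lines. Pdp1, a phosphatase that switches pyruvate dehydrogenase on, averaged 14.7 ± 2.4 CPM in treated and 5.68 ± 2.5 CPM in untreated EV, and 9.42 ± 1.4 CPM in treated and 8.999 ± 2.8 CPM in untreated WT (SD, n = 3 each). Its change was 1.41 ± 0.27 in EV, with edgeR adjusted p = 9.19e-05, and 0.09 ± 0.26 in WT. Ddit4, an inhibitor of mTOR signalling, averaged 14.9 ± 2.6 CPM in treated and 30.9 ± 2.1 CPM in untreated WT (SD, n = 3 each). Its change was -1.003 ± 0.19 in WT, with edgeR adjusted p = 9.79e-05, and -0.16 ± 0.20 in EV. Neither gene passed the test of the EV response minus the WT response, for which edgeR called 0 of the 67 genes. In WT Ldhb, the lactate dehydrogenase subunit that favours pyruvate, changed by 0.36 ± 0.11, Pdk4, another kinase of pyruvate dehydrogenase, by -0.62 ± 0.20, Pdp2, another phosphatase of it, by -0.48 ± 0.13, and Crebbp, a coactivator of HIF, by -0.37 ± 0.11. Their edgeR adjusted p ran from 0.0108 to 0.0380. In EV the changes were 0.21 ± 0.12 for Ldhb, 0.15 ± 0.12 for Pdp2 and 0.03 ± 0.11 for Crebbp. Pdk4 changed by -0.66 ± 0.22 in EV and missed the threshold there at edgeR adjusted p = 0.0694. It passed in EV with the compared groups alone (0.0479) and without treated 1CF10 library 3 (0.0472) or untreated EV library 3 (0.0389), in a range of 0.0389 to 0.326. The Pdk4 call was lost without any 1 of the 6 WT libraries (adjusted p up to 0.219), and that of Crebbp without treated library 2 or 3 or untreated library 2 or 3 (up to 0.232) and at a minimum count of 30 (0.0506). The Ldhb call was lost without treated library 2 or 3 or untreated library 1 or 2 (up to 0.152), and that of Pdp2 without treated library 2 or 3 or untreated library 3 (up to 0.190). DESeq2 kept Pdp2 alone of these 4. Flt1, a VEGF receptor gene named after its value was seen, completed the WT calls at 0.59 ± 0.19, against 0.31 ± 0.22 in EV, and was lost without treated library 2 or 3 or untreated library 2 or 3 (up to 0.148), without the filter (0.0553) and with DESeq2 (0.201). For the clones minus the controls, 5 of the 67 were called, 7.46% against 5.24% of all tested genes, Mxi1 and Car12 lower at -1.08 ± 0.23 and -0.82 ± 0.15, and Ddit4, Pdk4 and Edn1 higher at 0.74 ± 0.20, 0.68 ± 0.19 and 0.61 ± 0.17. The largest edgeR adjusted p of these 5 was 0.0215, and DESeq2 called Mxi1 and Car12 alone. The Ddit4 call was lost without treated 1CF10 library 3, untreated 1CF10 library 2, treated 2CD7 library 3 or treated EV library 3 (adjusted p up to 0.120), and that of Edn1 without treated 2CD7 library 1, treated WT library 1 or untreated WT library 1 (up to 0.101). The Pdk4 call was lost without treated 1CF10 library 3, treated 2CD7 library 1 or 3, untreated EV library 2 or untreated WT library 1 (up to 0.0850).

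**Figure D3:**
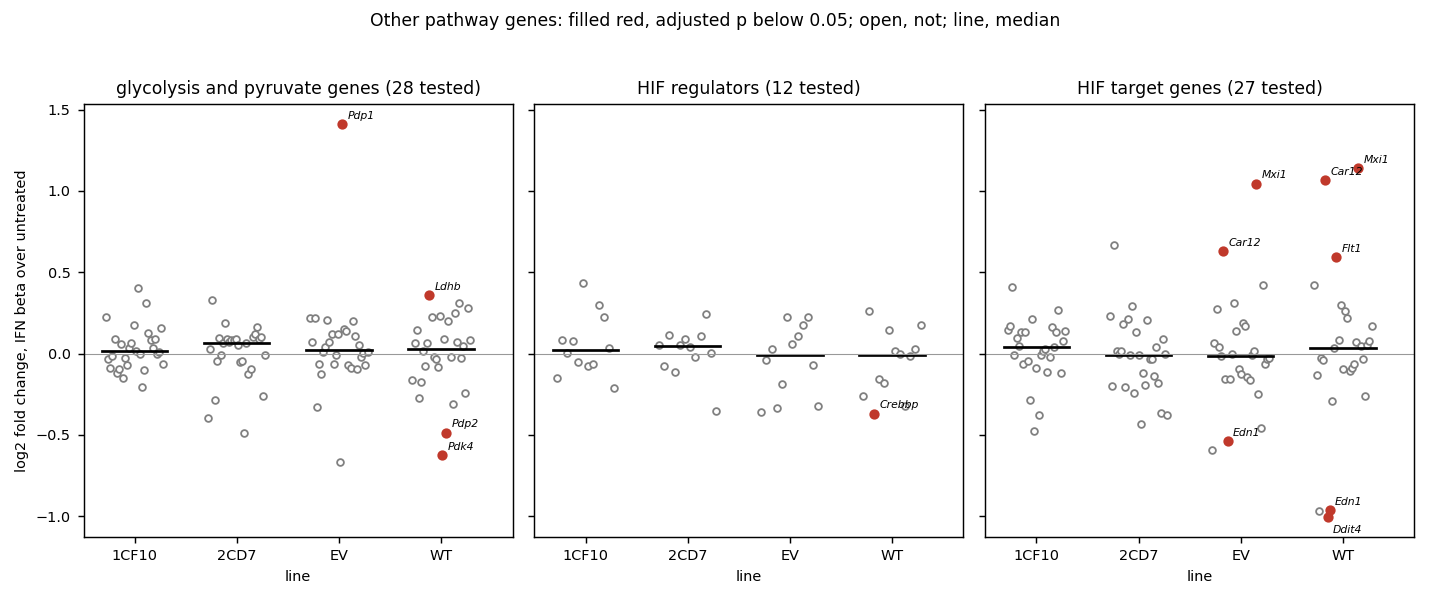
Log2 fold change after IFN beta of the 67 tested genes of the 3 lists in each of the 4 lines (horizontal axis), by list, with genes called by edgeR at adjusted p below 0.05 filled and named. Most genes lie near 0, Mxi1 and Car12 are called higher in both EV and WT, and no gene is called in the clones.

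The 5 genes with profiles closest to that of Hk2 were sought among 8651 tested genes with an average log2 CPM of at least 3, by the root mean square distance between centred mean log2 CPM over the 8 groups. They were Klf4, a transcription factor gene (0.109), Zc3hav1, an antiviral zinc finger protein gene (0.113), Dcp2, an mRNA decapping enzyme gene (0.115), Mafk, a small Maf transcription factor gene (0.121), and Naa20, an N-terminal acetyltransferase gene (0.131). Klf4 changed by 1.23 ± 0.10 in EV and 1.17 ± 0.10 in WT after IFN beta. In the clones it changed by -0.02 ± 0.11 in 1CF10 and -0.08 ± 0.11 in 2CD7. Of the other glycolysis and hypoxia genes, Hif1a (0.315, rank 152) and Pfkfb3 (0.366, rank 298) came next and Slc2a1 was farthest (0.567). These distances describe 8 group means and were given no test.

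Without IFN beta the lines differed in 4 of the genes. Ldha was lower in 1CF10 than in any other line: 752, 730 and 725 CPM in untreated 1CF10, against 1215, 1200 and 1271 CPM in untreated EV and 1253, 1183 and 1171 CPM in untreated WT. Untreated 2CD7 had 1093, 1169 and 1138 CPM. All 6 libraries of 1CF10, treated or not, lay at 720 to 800 CPM, below the 18 others at 1093 to 1271 CPM. The log2 difference of untreated 1CF10 was -0.77 ± 0.06 from EV, 0.586 of the EV level, and -0.74 ± 0.06 from WT, with edgeR adjusted p = 1.18e-16 and 1.56e-16, and 2CD7 was higher than 1CF10 by 0.65 ± 0.06 (adjusted p = 3.90e-14). These calls held in every alternative. The 497 tested genes of chromosome 7, where Ldha lies, with an average log2 CPM above 4 had medians of -0.06 and -0.08 in the first 2 comparisons. These medians cover the whole chromosome, and a shift confined to the part around Ldha was not tested. Differences of 2CD7 from EV and WT, -0.12 ± 0.05 and -0.09 ± 0.05, did not pass the test.

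Hif1a was lower in both clones than in both controls. Untreated 1CF10 differed by -0.65 ± 0.10 from EV and by -0.69 ± 0.10 from WT, with edgeR adjusted p = 6.75e-07 and 7.47e-08, and these calls held in every alternative. Untreated 2CD7 differed by -0.35 ± 0.09 from EV and by -0.40 ± 0.09 from WT, with edgeR adjusted p = 0.00797 and 0.00722. The call against EV was lost without untreated 2CD7 library 3 (adjusted p = 0.101) or untreated EV library 1 (0.0797) or 3 (0.0672), in a range of 0.00161 to 0.101. The call against WT was lost without untreated 2CD7 library 1 (0.0631) or 3 (0.0902) or untreated WT library 2 (0.0564) or 3 (0.112), in a range of 0.00585 to 0.112. Between the clones, 2CD7 was higher by 0.30 ± 0.10 (edgeR adjusted p = 0.0334), a call lost with DESeq2 (0.100), without the filter (0.0654) and without untreated 1CF10 library 2 (0.214) or untreated 2CD7 library 1 (0.0530) or 2 (0.225), in a range of 0.0170 to 0.225.

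Genes of chromosome 12, which carries Hif1a, were lower in 1CF10 as a group. The median over 229 tested genes of chromosome 12 with an average log2 CPM above 4 was -0.43 for untreated 1CF10 against EV and -0.31 against WT. For untreated 2CD7 it was -0.13 against EV and -0.02 against WT, and for 2CD7 against 1CF10 0.26. The part of this shift in the Hif1a differences was not tested. For 2CD7 against WT the chromosome median lay near 0 and the Hif1a difference at -0.40. All of these medians cover the whole chromosome, and a shift confined to the part around Hif1a was not tested.

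Hk2 was higher in untreated EV than in the other lines. It had 72.3, 65.4 and 64.6 CPM in untreated 1CF10, 72.0, 73.6 and 71.4 CPM in untreated 2CD7, 81.9, 90.5 and 97.6 CPM in untreated EV and 66.6, 67.4 and 61.9 CPM in untreated WT, so every EV library lay above the 9 others. EV exceeded WT by 0.47 ± 0.10 (edgeR adjusted p = 0.000761) and 1CF10 differed from EV by -0.45 ± 0.10 (0.00120). The difference of 2CD7 from EV was -0.32 ± 0.10 with edgeR adjusted p = 0.0335. That call was lost with DESeq2 (0.127), without the filter (0.0671) and without untreated 2CD7 library 1 (0.0899), 2 (0.0904) or 3 (0.115) or untreated EV library 2 (0.0971) or 3 (0.198), in a range of 0.0202 to 0.198. Against WT neither clone passed the test, with 0.02 ± 0.11 in 1CF10 (95% interval -0.20 to 0.23) and 0.15 ± 0.11 in 2CD7 (-0.07 to 0.36). The difference of the clones in Hk2 was thus called against EV and not against WT.

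Pgk1 was lower in untreated 1CF10, at 135, 126 and 133 CPM, against 146, 168 and 145 CPM in untreated 2CD7, 152, 143 and 160 CPM in untreated EV and 152, 156 and 146 CPM in untreated WT. The 1CF10 libraries did not overlap with those of any other line. The difference was -0.23 ± 0.08 from WT (edgeR adjusted p = 0.0432) and -0.24 ± 0.08 from EV (0.0542), and 2CD7 exceeded 1CF10 by 0.25 ± 0.08 (0.0386). With the copies Pgk1-rs7 and Gm5537 added, an alternative chosen after seeing the data, the difference from WT was -0.15 ± 0.07 (edgeR adjusted p = 0.176) and that between the clones 0.21 ± 0.07 (0.0490). The call against WT was also lost in 19 further alternatives, among them each of the 6 compared libraries left out, in a range of 0.0371 to 0.176. That between the clones was lost in 6, among them untreated 1CF10 library 1, 2 or 3 or untreated 2CD7 library 2 left out, in a range of 0.0170 to 0.249. The difference from EV passed with the compared groups alone (0.0423) and without treated 1CF10 library 3 (0.0401), treated 2CD7 library 1 (0.0482) or 2 (0.0466), untreated 2CD7 library 2 (0.0497), treated EV library 2 (0.0493) or treated WT library 1 (0.0487) or 3 (0.0495), in a range of 0.0401 to 0.220. Adding Eno1b and Gm4735 to Eno1 gave -0.16 ± 0.05 for untreated 1CF10 against EV with edgeR adjusted p = 0.0390, where Eno1 alone gave -0.11 ± 0.06 and 0.307. Hk1, Slc2a1, Pfkfb3, Pdk1 and Vegfa passed the edgeR test in none of the 6 comparisons of untreated lines.

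**Figure D4:**
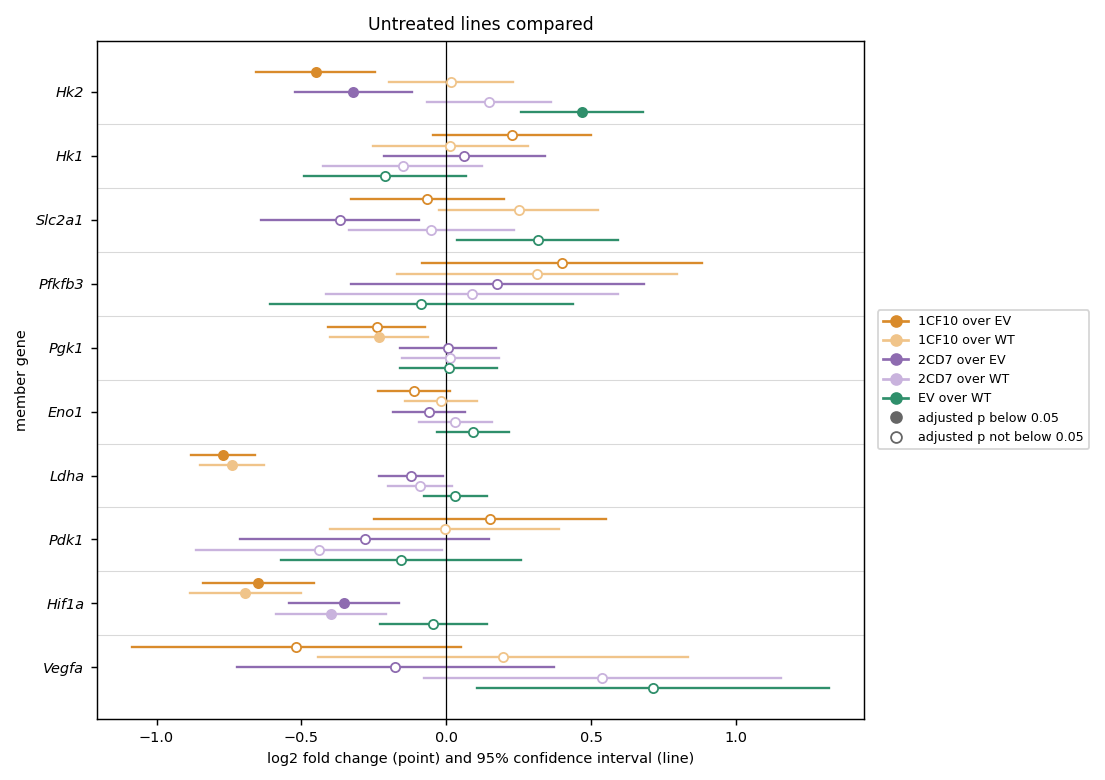
Log2 difference of each of the 10 genes between untreated lines, for each clone against EV and WT and for EV against WT, with 95% intervals from the edgeR fit and filled points for adjusted p below 0.05. Ldha and Hif1a lie lowest for 1CF10 against EV (-0.77 and -0.65) and against WT (-0.74 and -0.69), and Hk2 is above 0 for EV against WT (0.47).

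In counts, 3 of 10 genes were lower in untreated 1CF10 than in EV, where 10.4% of all tested genes were called and 6.76% were lower. In untreated 2CD7, 2 of 10 were lower than in EV, where 8.86% were called and 4.86% were lower. Against WT 3 of 10 were lower in 1CF10, where 19.2% were called and 11% were lower, and 1 of 10 in 2CD7, where 3.51% were called and 2.06% were lower. EV exceeded WT in 1 of 10 genes, where 14.1% were called and 6.96% were higher. Between the clones 3 of 10 were higher in 2CD7, where 13.4% were called and 7.71% were higher. Libraries did not overlap for 6 of 10 genes between untreated 1CF10 and EV, 4 between 2CD7 and EV, 3 between 1CF10 and WT, 4 between 2CD7 and WT, 3 between EV and WT and 5 between the clones. The same was so of 27%, 26.2%, 34.1%, 22%, 29.5% and 30.2% of all tested genes in these comparisons. The comparisons share samples and are not independent of one another, and the genes were chosen with earlier results of these data known. Summed epithelial and mesothelial markers also moved with line and treatment: they stood at 2157 to 2321 CPM in treated and 2252 to 2286 CPM in untreated 1CF10, and at 2914 to 3147 CPM in treated and 3026 to 3110 CPM in untreated 2CD7. In EV they stood at 2761 to 2850 CPM in treated and 2415 to 2485 CPM in untreated cells, and in WT at 3605 to 3864 CPM in treated and 2820 to 3041 CPM in untreated cells. Their part in the results was not tested.

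Among the wider lists, 14 of 67 genes differed between untreated 1CF10 and EV (7 higher, 7 lower), 14 between 2CD7 and EV (8 higher, 6 lower), 20 between 1CF10 and WT (7 higher, 13 lower) and 5 between 2CD7 and WT (3 higher, 2 lower). EV and WT differed in 18 (5 higher, 13 lower in EV) and the clones in 21 (11 higher, 10 lower in 2CD7). These were 20.9%, 20.9%, 29.9%, 7.46%, 26.9% and 31.3% of the 67 genes, against 10.4%, 8.86%, 19.2%, 3.51%, 14.1% and 13.4% of all tested genes. Gpi1, the enzyme after hexokinase, was lower in 1CF10 than in the other 3 lines: it averaged 143 ± 8.2 CPM in untreated 1CF10, against 210 ± 7.2 CPM in 2CD7, 211 ± 4.8 CPM in EV and 210 ± 11 CPM in WT (SD, n = 3 each). The difference was -0.59 ± 0.08 from EV and -0.58 ± 0.08 from WT, and 2CD7 exceeded 1CF10 by 0.58 ± 0.08, with a largest edgeR adjusted p of 1.92e-08. Of the 13 genes lower in 1CF10 than in WT, Gys1 and Egln2 differed by -0.71 ± 0.24 and -0.53 ± 0.11 (edgeR adjusted p = 0.0266 and 0.000107). 2CD7 exceeded 1CF10 in them by 0.96 ± 0.23 and 0.44 ± 0.11. The Gys1 call against WT was lost with DESeq2 (adjusted p = 0.101), in a range of 0.0171 to 0.299. Where Gpi1, Gys1 and Egln2 lie relative to Ldha was not examined. Whether these differences of 1CF10 and that of Ldha arose separately was not tested. These Gpi1 calls held in every alternative, as did those of the 3 genes that follow in the comparisons named. Egln3, a prolyl hydroxylase that marks HIF-1 alpha for destruction, averaged 7.23 ± 2.1 CPM in untreated 1CF10, 16.8 ± 3.3 CPM in 2CD7, 5.13 ± 1.7 CPM in EV and 17.2 ± 1.6 CPM in WT (SD, n = 3 each). Its differences were -1.25 ± 0.25 for 1CF10 against WT, -1.75 ± 0.28 for EV against WT and 1.69 ± 0.28 for 2CD7 against EV, with a largest edgeR adjusted p of 0.000120. Egln3 also lies on chromosome 12, whose shift in 1CF10 is given above. Lox, a matrix cross-linking oxidase, was lowest in EV: it averaged 29.7 ± 1.005 CPM in untreated 1CF10, 17.0 ± 2.1 CPM in 2CD7, 8.10 ± 2.3 CPM in EV and 24.5 ± 2.1 CPM in WT (SD, n = 3 each). Its differences were 1.84 ± 0.20 for 1CF10 against EV, 1.06 ± 0.22 for 2CD7 against EV and -1.58 ± 0.21 for EV against WT, at a largest edgeR adjusted p of 0.000531. Neither clone passed the test of Lox against WT, with 0.25 ± 0.16 in 1CF10 and -0.52 ± 0.18 in 2CD7. Edn1 was 2.09 ± 0.16 higher in 1CF10 than in WT and 1.60 ± 0.17 higher in EV than in WT, with edgeR adjusted p = 1.30e-16 and 3.75e-11. Among the HIF targets, the largest differences of the clones from EV were those of P4ha2, a subunit of the collagen prolyl hydroxylase, and Ak4, a mitochondrial adenylate kinase, both at low counts. P4ha2 averaged 5.82 ± 0.97 CPM in untreated 1CF10, 13.9 ± 3.4 CPM in 2CD7, 1.21 ± 0.40 CPM in EV and 6.36 ± 1.6 CPM in WT, with 2 to 4 UMIs in each EV library (SD, n = 3 each). It differed by 2.17 ± 0.45 for 1CF10 against EV, 3.45 ± 0.37 for 2CD7 against EV and -2.31 ± 0.45 for EV against WT. Ak4 averaged 1.26 ± 0.41 CPM in untreated 1CF10, 1.13 ± 0.59 CPM in 2CD7, 6.21 ± 1.9 CPM in EV and 1.85 ± 0.16 CPM in WT (SD, n = 3 each). It differed by -2.33 ± 0.43 for 1CF10 against EV, -2.39 ± 0.44 for 2CD7 against EV and 1.74 ± 0.41 for EV against WT. The largest edgeR adjusted p of these 6 differences was 0.00156, and they held in every alternative in which the genes passed the filter. Median log2 differences of the 67 genes ran from -0.10 to 0.04 over the 6 comparisons, against -0.02 to 0.008 over all tested genes.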

How the data were processed

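Poly(A)-primed 3′ RNA libraries of ID8 cells were analysed from the deposited UMI counts per gene, which the authors made without normalization. Per the submitters' processing notes, R 3.6.2 and 4.1.2, cutadapt 3.0, edgeR 3.36.0, limma 3.50.0 and the build GRCm38 were used, while these sources name no aligner. Per the labels' protocols, 50000 cells per well were plated 24 h before treatment in medium with 4% serum.

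A single fit of all 24 libraries used edgeR 4.0.16 (R 4.3.3) with TMM scaling, filterByExpr (minimum count 10, minimum total 15), robust dispersions, 8 group means and the quasi-likelihood F test. Adjusted p is Benjamini-Hochberg over 11698 genes, called below 0.05, in 13 comparisons. The SE is the log2 fold change divided by the square root of F, and CPM uses library totals. With TMM factors of 0.964 to 1.06, log2 fold changes differ slightly from ratios of CPM. Alternatives were RLE size factors, DESeq2 1.42.0, limma-voom 3.58.1, no filter, a minimum count of 30, a replicate block, the compared groups alone, each library left out and, chosen after seeing the data, near-identical copies added. The edgeR test was also run on counts simulated for IFN beta in WT from the fitted dispersions. Its outcome is not given here, and no result rests on it. That run cannot check the spread between cultures or the other comparisons. Genes and lists were chosen with earlier results of these data known. Named genes of each list were taken from the 4 called genes with the largest change per comparison, and not all of these are described. Flt1 in WT and Lox for EV against WT lie outside this rule and were named after their values were seen.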

Additional observations from a re-analysis of the deposited data

Results flagged for a closer look

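The difference between the response of the clones and that of the controls passed the edgeR test for 2 of the 10 genes. For Hk2 it was -1.03 ± 0.10 on the log2 scale (SE, edgeR adjusted p = 2.48e-12): the mean of the clones' log2 fold changes, 0.05 in 1CF10 and -0.13 in 2CD7, minus that of 0.92 in EV and 1.07 in WT. For Hif1a it was -0.32 ± 0.09 (edgeR adjusted p = 0.0266), with -0.06 in 1CF10 and 0.15 in 2CD7 against 0.30 in EV and 0.43 in WT. Of all tested genes, 5.24% passed this test.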

How the results depend on the processing

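No direction of a called value was reversed in any of 32 alternatives (31 for the clones minus the controls). DESeq2 moved these counts: members called in EV 1, in WT 2, for the clones minus the controls 1, for untreated 2CD7 against EV 1 and against 1CF10 1, and genes of the wider lists called in EV 2, in WT 5, for the clones minus the controls 2 and for untreated 2CD7 against WT 3. Without the filter on low counts, 1 of the 10 was called for untreated 2CD7 against EV and 1 against 1CF10, and 1 gene of the wider lists for the EV minus the WT response. The cause was not tested. With each library left out in turn, members called were 1 to 2 in EV, 2 to 4 in WT, 1 to 3 for the clones minus the controls, 3 to 4 for untreated 1CF10 against EV, 0 to 2 for 2CD7 against EV, 2 to 3 for 1CF10 against WT, 0 to 1 for 2CD7 against WT, 1 to 2 for EV against WT and 1 to 4 for 2CD7 against 1CF10. For the wider lists these counts were 3 to 5 in EV, 4 to 9 in WT, 3 to 6 for the clones minus the controls, 0 to 1 for the EV minus the WT response, 10 to 15 for untreated 1CF10 against EV, 10 to 17 for 2CD7 against EV, 14 to 22 for 1CF10 against WT, 3 to 6 for 2CD7 against WT, 11 to 18 for EV against WT and 16 to 21 for 2CD7 against 1CF10. The fit with the replicate number as a block called 2 members in EV, 4 in WT and 2 for the clones minus the controls, as without it, and 14 of all genes for the EV minus the WT response, against 5 without it. That count was also 76 without the filter and 30 with the compared groups alone. Deviations of libraries with the same number correlated at a mean of 0.0192 (-0.153 to 0.151, 84 pairs). Those of libraries with other numbers correlated at a mean of -0.00961 (-0.307 to 0.286, 168 pairs), so the numbers gave no clear sign of pairing. Vegfa, Pfkfb3 and Pdk1, with 496, 667 and 921 UMIs in all, were limited by depth. The compared groups alone cannot be fitted apart for the clones minus the controls, which use all 8 groups.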
